A study of Homo sapiens with 5 samples.

Results

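Integrins, laminins, collagens and the basement membrane proteoglycan HSPG2 were read in T84 cells exposed to interferon-gamma (IFN-gamma), a cytokine of T cells and natural killer cells. T84 is a colon carcinoma line of human origin that grows as a polarised sheet. Genes were taken by symbol: those that start with ITGA, ITGB, LAMA, LAMB, LAMC or COL followed by a number, with HSPG2 and FN1. Of 53 such genes on the array, 37 exceeded an intensity of 20 on at least 1 array (the floor, to which lower values were raised before the logarithm) and are described here, out of 4961 genes named by a single symbol. Each is represented by the probe set of highest mean intensity, and HSPG2 by both of its probe sets, which gave 38 probe sets in all. There were 5 Affymetrix arrays of T84 RNA: 1 untreated, described in the labels as a pooled control, 2 after 6 h and 2 after 18 h of IFN-gamma at 1000 U/ml. The titles speak of biological replicates but nothing says that the cultures were separate, so every p-value reflects scatter among arrays that may be technical in part. The labels name this line alone as the source of RNA.

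Epithelial cells rest on a basement membrane, a sheet of laminin and type IV collagen networks joined by nidogen and by the heparan sulfate proteoglycan perlecan, the product of HSPG2. Integrins are receptors made of an alpha and a beta chain that bind this matrix outside the cell and the cytoskeleton inside it. In intestinal epithelium the main laminin receptors pair ITGA6 with ITGB4, at hemidesmosome-like contacts, and ITGA3 or ITGA6 with ITGB1, while ITGA2 with ITGB1 binds collagen. Fibrillar collagens and collagen VI are made mostly by fibroblasts.

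The 250 bases before the start of HSPG2 (chr1:21937311-21937560, minus strand, GRCh38.p14, from RefSeq) and the stretch between the divergent starts of COL4A1 and COL4A2 are shown because HSPG2 held the fitted differences of largest size among these genes at 6 h against untreated and at 18 h against 6 h, and because the type IV collagen pair shares 1 short upstream region. The second sequence is at chr13:110307158-110307283 of the same build and is read on the strand of COL4A1. Capitals mark GGGCGG, a GC box, on either strand, with overlaps kept.
HSPG2: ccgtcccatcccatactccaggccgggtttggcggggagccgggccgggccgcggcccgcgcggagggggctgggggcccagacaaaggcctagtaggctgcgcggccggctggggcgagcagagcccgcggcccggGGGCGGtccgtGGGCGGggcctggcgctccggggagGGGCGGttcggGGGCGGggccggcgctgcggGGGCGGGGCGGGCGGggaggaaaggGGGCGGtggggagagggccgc
COL4A1 and COL4A2: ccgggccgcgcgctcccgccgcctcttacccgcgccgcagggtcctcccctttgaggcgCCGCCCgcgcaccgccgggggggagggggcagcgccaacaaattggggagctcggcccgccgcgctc
The HSPG2 stretch holds 8 such matches and is 82.8% G or C, and the COL4A1 and COL4A2 stretch holds 1 in 126 bases. RefSeq listed an upstream stretch for 26 of the 37 genes, and the first start was used where a gene had several. The GC box occurred in 17 of the 26, or 65.4%, against 42.3% of 27305 upstream stretches of the same length. Those 27305 were not limited to genes on the array, so the shares are not matched. COL4A1 and COL4A2 are both among the 17, and the match in their shared stretch is counted for both. Such a match is only a run of letters in this window.

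The labels of the arrays bear on every comparison. CXCL10, a chemokine that IFN-gamma induces, read 1317 on the untreated-labelled array, 41 and 1149 on the arrays labelled 6 h replicate 1 and replicate 2, and 1260 and 1399 on the 18 h arrays, and IRF1, TAP1 and GBP1 were likewise lowest on the array labelled 6 h replicate 1, with the other 4 arrays in an order that differed between genes. On the untreated-labelled array GBP1 read 325, below 6 h replicate 2 and both 18 h arrays (368 to 452), IRF1 read 1086, above all others, and TAP1 1772, below 18 h replicate 2 alone, and the array labelled 6 h replicate 1 held them between 8 and 61. Both are called by their labels below, and every direction drawn from either rests on a label that these targets oppose. The arrays also differed in range, with a standard deviation of intensity of 308 on the untreated-labelled array, 410 on 6 h replicate 1 and 350 on 18 h replicate 2, and of 245 and 258 on 6 h replicate 2 and 18 h replicate 1. All 13 epithelial markers measured exceeded the floor on all 5 arrays, so the label of an epithelial line fits its markers. Of 18 fibroblast and endothelial markers, 12 exceeded the floor on at least 1 array and 5 did so on all arrays, namely S100A4 (74 to 524), CD34 (100 to 178), CDH5, PROCR and PDGFRB. The other 6 (FAP, LUM, POSTN, VWF, TEK and KDR) never did. Their summed intensity was 713 on the untreated-labelled array, 1052 and 813 at 6 h, and 762 and 604 at 18 h. Of 16 leukocyte markers 11 exceeded the floor, with CD3E (168 to 345), LYZ (54 to 135) and CD4 (21 to 37) above it on all 5 arrays, while CD3G, CD8A, NKG7, SPI1 and CD14 never did. Their summed intensity was 580 on the untreated-labelled array, 411 and 488 at 6 h, and 434 and 435 at 18 h.

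Several collagens of connective tissue never exceeded the floor of 20. Genes that never exceeded the floor were 10 of 26 collagens (COL1A2, COL4A3, COL4A4, COL4A6, COL5A1, COL6A3, COL9A3, COL10A1, COL15A1 and COL18A1), 2 of 6 laminin chains (LAMA2 and LAMA4), 3 of 17 integrin chains (ITGA5, ITGB2 and ITGB7), and fibronectin (FN1, between -68 and -43). ITGA5 is the alpha chain of the fibronectin receptor, and ITGB2 and ITGB7 are chains of leukocyte integrins. Among the 37 genes kept, 21 exceeded the floor on all 5 arrays, or 56.8%, against 62.6% of the 5029 probe sets tested, and 5 did so on 1 array alone. At the edge of the rule, ITGA1 and ITGB1BP1 reached 22 on their highest array and ITGA4 and LAMB2 26, while COL6A3 and LAMA4 reached 18 and COL15A1 and COL4A4 17. The probe set of vitronectin names a second gene and was not used. ITGB1BP1 and ITGB3BP entered by their symbols but are binding partners of beta chains and not integrins. ITGB3BP had 104 on the untreated-labelled array, 142 and 103 at 6 h, and 85 and 97 at 18 h.

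**Figure D1:**
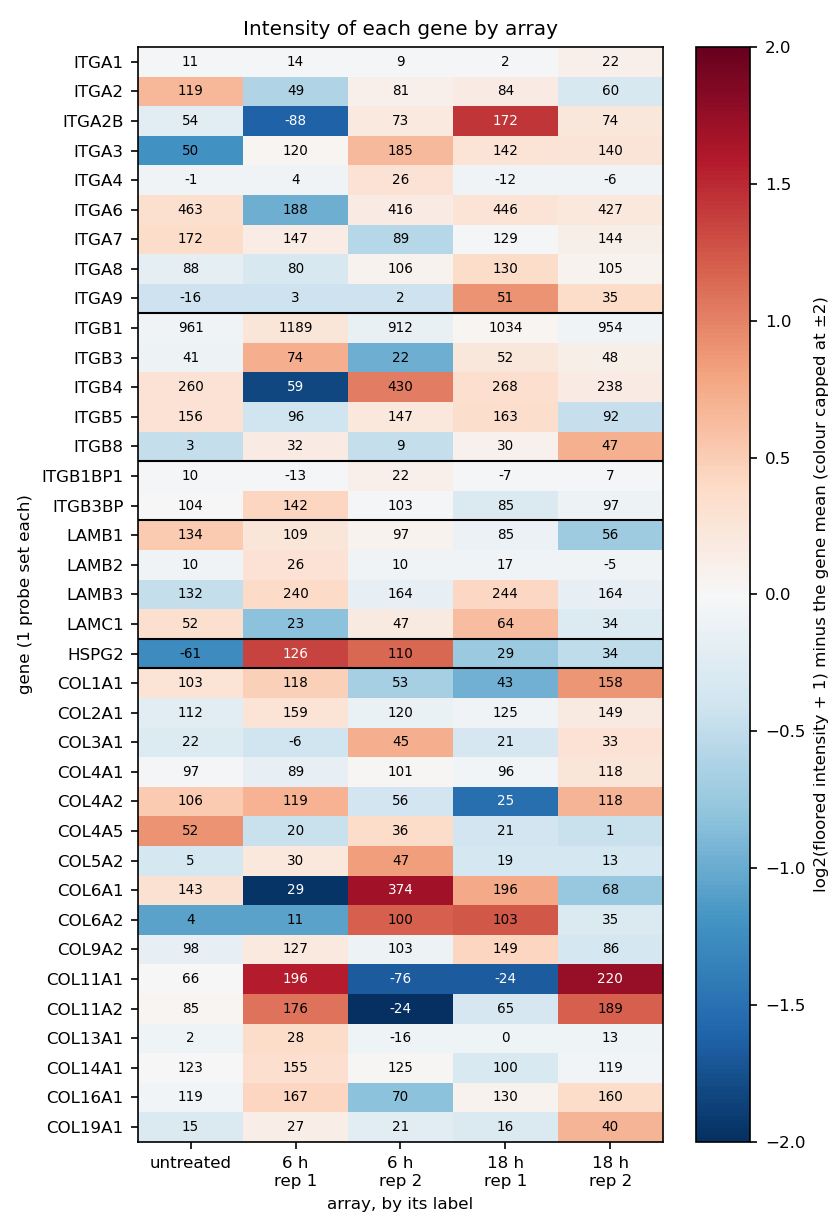
Intensity of the 37 genes (rows, grouped as integrin alpha, integrin beta, integrin-binding, laminin, HSPG2 and collagen) on the 5 arrays (columns, by label); each cell prints the intensity, and the colour gives log2 of the floored intensity plus 1, minus the mean of the gene. ITGB4, COL6A1 and ITGA6 are low on the array labelled 6 h replicate 1 (59, 29 and 188), and the first probe set of HSPG2 is high on both 6 h arrays (126 and 110).

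Perlecan (HSPG2) gave the clearest separation of 6 h from the other arrays in 1 of its 2 probe sets. The first set, of higher mean, had -61 on the untreated-labelled array, 126 and 110 on the 6 h arrays, and 29 and 34 on the 18 h arrays. The 6 h arrays lay above all others and the 18 h arrays lay between, just over the floor. This order rests on the labels of the untreated array and of 6 h replicate 1, which CXCL10, IRF1, TAP1 and GBP1 oppose. The part of those labels in the separation was not tested. At 6 h the mean was 118 ± 11.3 (SD, n = 2). This was at least 5.9-fold higher than the untreated-labelled array, which fell under the floor, and the fitted log2 difference was 2.50 (SE 0.25). At 18 h the mean was 31.5 ± 3.54 (SD, n = 2), and the log2 difference from 6 h was -1.87 (SE 0.21). The unadjusted limma p was 0.00155 at 6 h against untreated and 0.00202 at 18 h against 6 h, but after Benjamini-Hochberg adjustment over all probe sets neither passed (limma adjusted p = 1 and 0.940). With the untreated-labelled array under the floor and every other array above it, the differences from untreated could only lie above 0. The p-value against untreated is therefore given as a description. The second probe set had 37 on the untreated-labelled array, 23 and 64 at 6 h, and 21 and 38 at 18 h. Its groups overlapped in all 3 comparisons, with log2 differences of 0.056 (SE 0.82) at 6 h and -0.38 (SE 0.82) at 18 h against untreated. The pattern of the first set therefore did not recur in the second.

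Among integrin alpha chains, ITGA3, which pairs with ITGB1 as a laminin receptor, lay lower on the untreated-labelled array than on all 4 others. It had 120 and 185 at 6 h, and 142 and 140 at 18 h, against 50 on the untreated-labelled array. The log2 difference was 1.56 (SE 0.36) at 6 h and 1.48 (SE 0.36) at 18 h, both against the same single array. ITGA3 was the only 1 of the 37 genes for which the untreated-labelled array was at least 1 (log2) below every other array, a gap found in 0.795% of all probe sets. The unadjusted limma p was 0.0200 and 0.0232, and neither passed after adjustment (limma adjusted p = 1 and 0.992). THY1, a marker in the fibroblast and endothelial list, also lay lower on the untreated-labelled array, with 62 and 75 at 6 h, and 75 and 83 at 18 h, against -17 there. Its log2 difference was 1.72 (SE 0.25) at 6 h and 1.93 (SE 0.25) at 18 h (limma adjusted p = 1 and 0.985), and its part in the values of ITGA3 was not tested.

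ITGA6, the alpha chain of the hemidesmosome receptor, had 463 on the untreated-labelled array, 188 and 416 at 6 h, and 446 and 427 at 18 h. Its low value stood on the array labelled 6 h replicate 1 alone, where CXCL10 and IRF1 were also low. The log2 difference of 6 h from untreated was -0.72 (SE 0.59) and became -0.15 without that array. The part of that array's label in the difference was not tested. ITGA2, the collagen receptor chain, had 119 on the untreated-labelled array, 49 and 81 at 6 h, and 84 and 60 at 18 h. All arrays labelled as treated lay below the untreated-labelled array, and the lowest was the array labelled 6 h replicate 1. The log2 differences were -0.91 (SE 0.46) at 6 h and -0.74 (SE 0.46) at 18 h. ITGA7, a laminin receptor chain known from muscle, had 172 on the untreated-labelled array, 147 and 89 at 6 h, and 129 and 144 at 18 h.

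ITGA9, a chain that pairs with ITGB1 and binds tenascin, exceeded the floor at 18 h alone. It had 51 and 35 at 18 h, against 3 and 2 at 6 h and -16 on the untreated-labelled array. The 18 h mean of 43 ± 11.3 (SD, n = 2) was at least 2.15-fold higher than either. The gene entered the fit through its 18 h arrays alone, with every other array at the floor, so it had to differ and its values are given as a description. A floor of 100 removed it. ITGA2B, the alpha chain of the platelet fibrinogen receptor, had 172 and 74 at 18 h, against -88 and 73 at 6 h and 54 on the untreated-labelled array. Its second probe set, at 28 and 17 at 18 h against -7 and 28 at 6 h, showed no such gap. ITGA8 had 88 on the untreated-labelled array, 80 and 106 at 6 h and 130 and 105 at 18 h, while ITGA1 and ITGA4 stayed at or below 26 on every array.

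Among beta chains, ITGB1, the partner of most matrix-binding alpha chains, varied little. It had 961 on the untreated-labelled array, 1189 and 912 at 6 h, and 1034 and 954 at 18 h. Its whole range was 0.38 on the log2 scale, against a median range of 1.19 over the 37 genes and 1.02 over all probe sets tested. A second probe set of ITGB1 lay below 0 on all 5 arrays.

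ITGB4, the partner of ITGA6, had 260 on the untreated-labelled array, 59 and 430 at 6 h, and 268 and 238 at 18 h. Its 6 h arrays differed from each other by 2.84 (log2), and the fitted difference of 6 h from untreated, -0.70 (SE 1.39), turned to 0.72 without the array labelled 6 h replicate 1. COL6A1, ITGA2B, ITGA6 and ITGB4 were at least 1 (log2) lower on that array than on each of the other 4, that is 4 of 37 genes, or 10.8%, against 4.61% of all probe sets. ITGB5, which pairs with ITGAV as a vitronectin receptor, had 156 on the untreated-labelled array, 96 and 147 at 6 h, and 163 and 92 at 18 h, and its second probe set had 176 on the untreated-labelled array, 56 and 182 at 6 h, and 123 and 80 at 18 h. In both sets the lower array of each time was the 1 of larger intensity range. ITGB3 had 41 on the untreated-labelled array, 74 and 22 at 6 h, and 52 and 48 at 18 h, and ITGB8 30 and 47 at 18 h against 32 and 9 at 6 h and 3 on the untreated-labelled array.

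**Figure D2:**
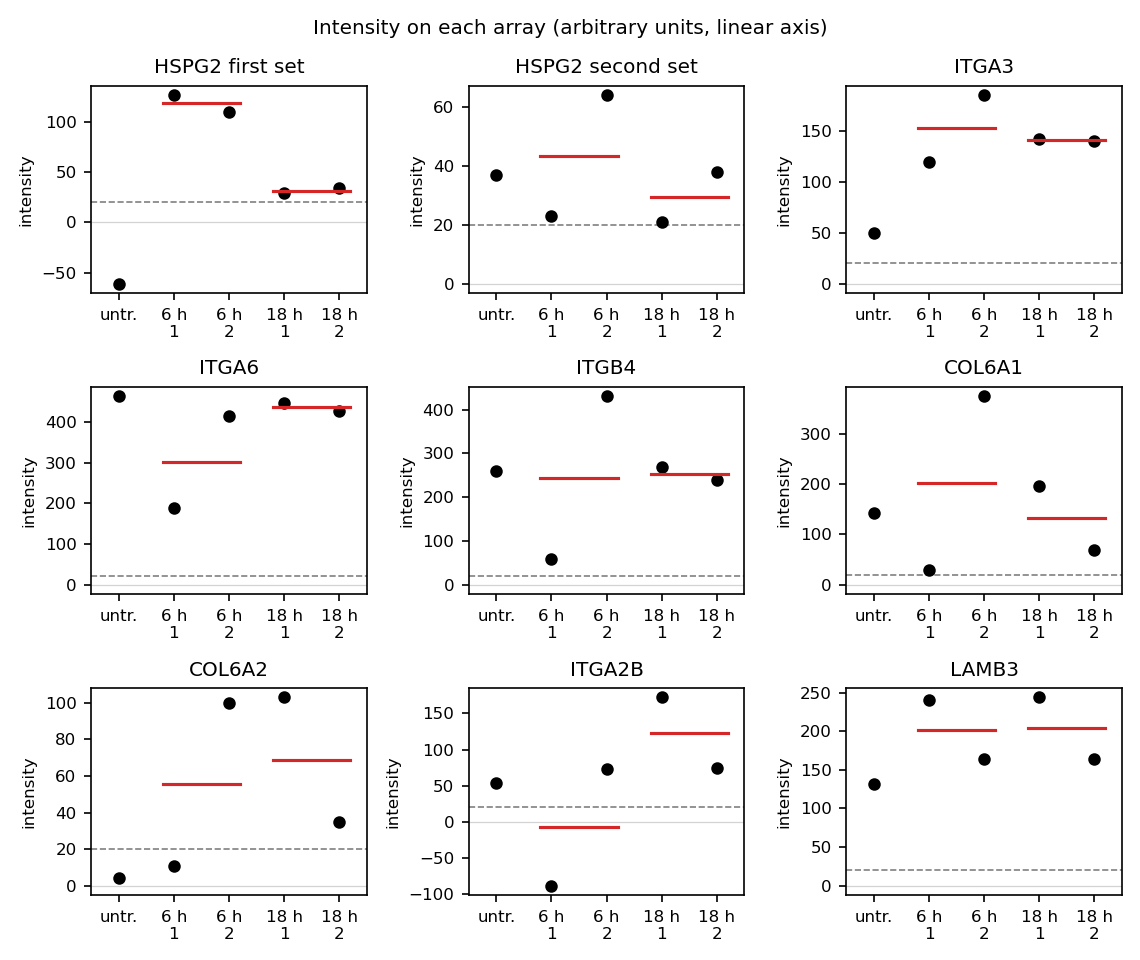
Intensity on each array for both probe sets of HSPG2 and for 7 further genes (points, 1 per array, in the order untreated, 6 h and 18 h); red bars are means of the 2 arrays of a time, and the dashed line is the floor of 20. With the arrays as labelled, the first set of HSPG2 separates the times while its second set does not, and the 2 points of ITGB4 at 6 h, 59 and 430, lie on either side of all others.

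The laminin chains lay on different sides of the untreated-labelled array. LAMB3, the beta chain of the epithelial laminin that anchors hemidesmosomes, had 240 and 164 at 6 h, and 244 and 164 at 18 h, against 132 on the untreated-labelled array. All 4 arrays labelled as treated lay above it, with log2 differences of 0.58 (SE 0.43) at 6 h and 0.60 (SE 0.43) at 18 h. LAMB1, a beta chain of several basement membrane laminins, had 109 and 97 at 6 h, and 85 and 56 at 18 h, against 134 on the untreated-labelled array. The 18 h arrays lay below the 6 h arrays as well, with a log2 difference of -0.57 (SE 0.30) against 6 h and -0.95 (SE 0.36) against untreated. Neither gene passed (limma adjusted p = 1 for each against untreated). LAMC1, the gamma chain of most laminins, had 52 on the untreated-labelled array, 23 and 47 at 6 h, and 64 and 34 at 18 h, and LAMB2 exceeded the floor on the array labelled 6 h replicate 1 alone, at 26.

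Type IV collagen chains did not vary alike although COL4A1 and COL4A2 start 127 bases apart on chromosome 13. COL4A1 had 97 on the untreated-labelled array, 89 and 101 at 6 h, and 96 and 118 at 18 h, a range of 0.40 (log2). COL4A2 had 106 on the untreated-labelled array, 119 and 56 at 6 h, and 25 and 118 at 18 h, a range of 2.21, and its second probe set lay below 0 throughout. COL4A5 had 20 and 36 at 6 h, and 21 and 1 at 18 h, against 52 on the untreated-labelled array. All arrays labelled as treated lay at 36 or below, with a log2 difference of -1.30 (SE 0.45) at 18 h.

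Of the collagen VI chains, which form beaded microfibrils, COL6A1 and COL6A2 lie next to each other on chromosome 21 in the RefSeq annotation of GRCh38.p14. COL6A1 had 143 on the untreated-labelled array, 29 and 374 at 6 h, and 196 and 68 at 18 h. COL6A2 had 4 on the untreated-labelled array, 11 and 100 at 6 h, and 103 and 35 at 18 h, while its second probe set lay between -108 and -48 on all 5 arrays. In the sets of higher mean, both genes were highest on 6 h replicate 2 and 18 h replicate 1, the arrays of smaller intensity range. For COL6A1 the replicates of each time differed by more than 18 h did from 6 h. Its 6 h arrays were 3.64 (log2) apart and its 18 h arrays 1.51. The fitted difference of 18 h from 6 h was 0.14 (SE 1.56).

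The fibrillar collagens COL1A1, COL11A1 and COL11A2 ran the other way between the replicates. COL11A1 had 66 on the untreated-labelled array, 196 and -76 at 6 h, and -24 and 220 at 18 h. COL11A2 had 85 on the untreated-labelled array, 176 and -24 at 6 h, and 65 and 189 at 18 h, and COL1A1 103 on the untreated-labelled array, 118 and 53 at 6 h, and 43 and 158 at 18 h. All 3 were higher on the array labelled 6 h replicate 1 and on 18 h replicate 2 than on their replicates. Second probe sets did not repeat this: that of COL11A1 had 69 on the untreated-labelled array, 33 and 87 at 6 h, and 69 and 50 at 18 h, and that of COL1A1 54 on the untreated-labelled array, 4 and 49 at 6 h, and 88 and 60 at 18 h. COL2A1, COL9A2, COL14A1 and COL16A1 lay between 70 and 167 on all arrays. COL5A2 exceeded the floor on both 6 h arrays alone, with 30 and 47 at 6 h, against 19 and 13 at 18 h and 5 on the untreated-labelled array. It entered the fit through its 6 h arrays alone, so it had to differ, and no test is drawn from it. COL3A1, COL13A1 and COL19A1 stayed at or below 45.

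At 6 h against untreated, 18 of the 37 genes lay above 0 (46.5% of all probe sets did) and 17 below (49.2% of all), with a median log2 difference of 0.00, which was also the median of all probe sets tested. COL5A2, COL13A1, ITGA4, ITGB1BP1 and LAMB2 entered the fit through 6 h arrays alone, so they could only lie above 0. COL6A2, COL19A1, HSPG2 and ITGB8 entered it through arrays labelled as treated alone, so they could not lie below 0. Both 6 h arrays lay above the untreated-labelled array in 8 genes, or 21.6% of the 37, where 19.8% of all probe sets did. Both lay below it in 7 genes, or 18.9%, where 27.8% of all probe sets did. No gene passed (0% of all probe sets were called by limma), and 2 of 37, HSPG2 and ITGA3, both higher, had an unadjusted p under 0.05, where 1.69% of all probe sets were higher and 1.95% lower at that p. The direction of HSPG2 was fixed by the floor, so its p-value here is a description. Without the array labelled 6 h replicate 1, which left 1 residual degree of freedom, 17 lay above 0 (46% of all probe sets) and 15 below (43.9% of all). Untreated and 6 h then had 1 array each, so the residual spread came from the 18 h arrays, which are outside this comparison. A small p in this fit reflects close agreement of the 18 h arrays as well as the difference. It is no test of 6 h against untreated. The genes at an unadjusted p under 0.05 were then 7: ITGA3, HSPG2, COL5A2 and ITGA4 higher, where 6.42% of all probe sets were, and ITGA7, ITGB3 and COL4A5 lower, where 4.26% were. COL5A2 and ITGA4 had entered the fit through 6 h arrays alone, and 0 genes passed after adjustment.

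At 18 h against untreated, 19 genes lay above 0 (42.3% of all probe sets did) and 13 below (51.8% of all), with a median of 0.024 against -0.022 for all probe sets. ITGA1 and ITGA9 entered the fit through 18 h arrays alone, so they could only lie above 0. COL6A2, COL19A1, HSPG2 and ITGB8 could not lie below 0, and COL5A2, COL13A1, ITGA4, ITGB1BP1 and LAMB2 could only lie at 0. Both 18 h arrays lay above the untreated-labelled array in 11 genes, or 29.7%, against 23.4% of all probe sets, and below it in 7, or 18.9%, against 35.4%. The 11 were COL2A1, COL6A2, COL16A1, HSPG2, ITGA2B, ITGA3, ITGA8, ITGA9, ITGB3, ITGB8 and LAMB3. No gene passed (0% of all probe sets called by limma), and ITGA3 and ITGA9, both higher, had an unadjusted p under 0.05, against 1.95% of all probe sets higher and 2.49% lower, ITGA9 having entered the fit through the 18 h arrays alone. Without the array labelled 6 h replicate 1 they were ITGA3 (higher, as were 4.16% of all probe sets) and COL4A5 (lower, as were 6.84%), and ITGA9 had an unadjusted limma p of 0.136. In the fit without that 6 h array, the residual spread came from the 18 h arrays alone. The untreated array cannot be left out of either comparison, and it has no replicate.

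At 18 h against 6 h, 21 genes lay above 0 (45.4% of all probe sets did) and 16 below (52.4% of all), with a median of 0.061 against -0.034 for all probe sets. The 18 h arrays lay above both 6 h arrays in ITGA2B, ITGA6 and ITGA9, 8.11% of the genes against 11.4% of all probe sets, and below both in COL5A2, COL14A1, HSPG2, ITGB3BP and LAMB1, 13.5% against 13.6%. No gene passed (0% of all probe sets called by limma, smallest adjusted p = 0.940), and ITGA9 (higher) and HSPG2 (lower) had an unadjusted p under 0.05, against 2.23% of all probe sets higher and 2.09% lower. ITGA9 and ITGA1 entered the fit through 18 h arrays alone, so they could only lie above 0. COL5A2, COL13A1, ITGA4, ITGB1BP1 and LAMB2 entered it through 6 h arrays alone, so they could only lie below 0. Without the array labelled 6 h replicate 1, 18 genes lay above 0 (42.7% of all probe sets) and 17 below (52.3% of all). The 6 h side was then 1 array, and the residual spread came from the 18 h arrays alone. For ITGA4 and COL5A2 both 18 h arrays lay at the floor, so that spread was 0 and they could only be lower. The p-values of this fit are therefore a description and not a test of the times. At an unadjusted p under 0.05 there were then 7 genes: ITGB3 higher, where 3.06% of all probe sets were, and ITGA3, ITGA4, ITGB4, HSPG2, COL4A5 and COL5A2 lower, where 8.69% were. ITGA9 was not among them, and 0 genes passed after adjustment. The 3 comparisons share arrays, so their values are not independent of each other.

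**Figure D3:**
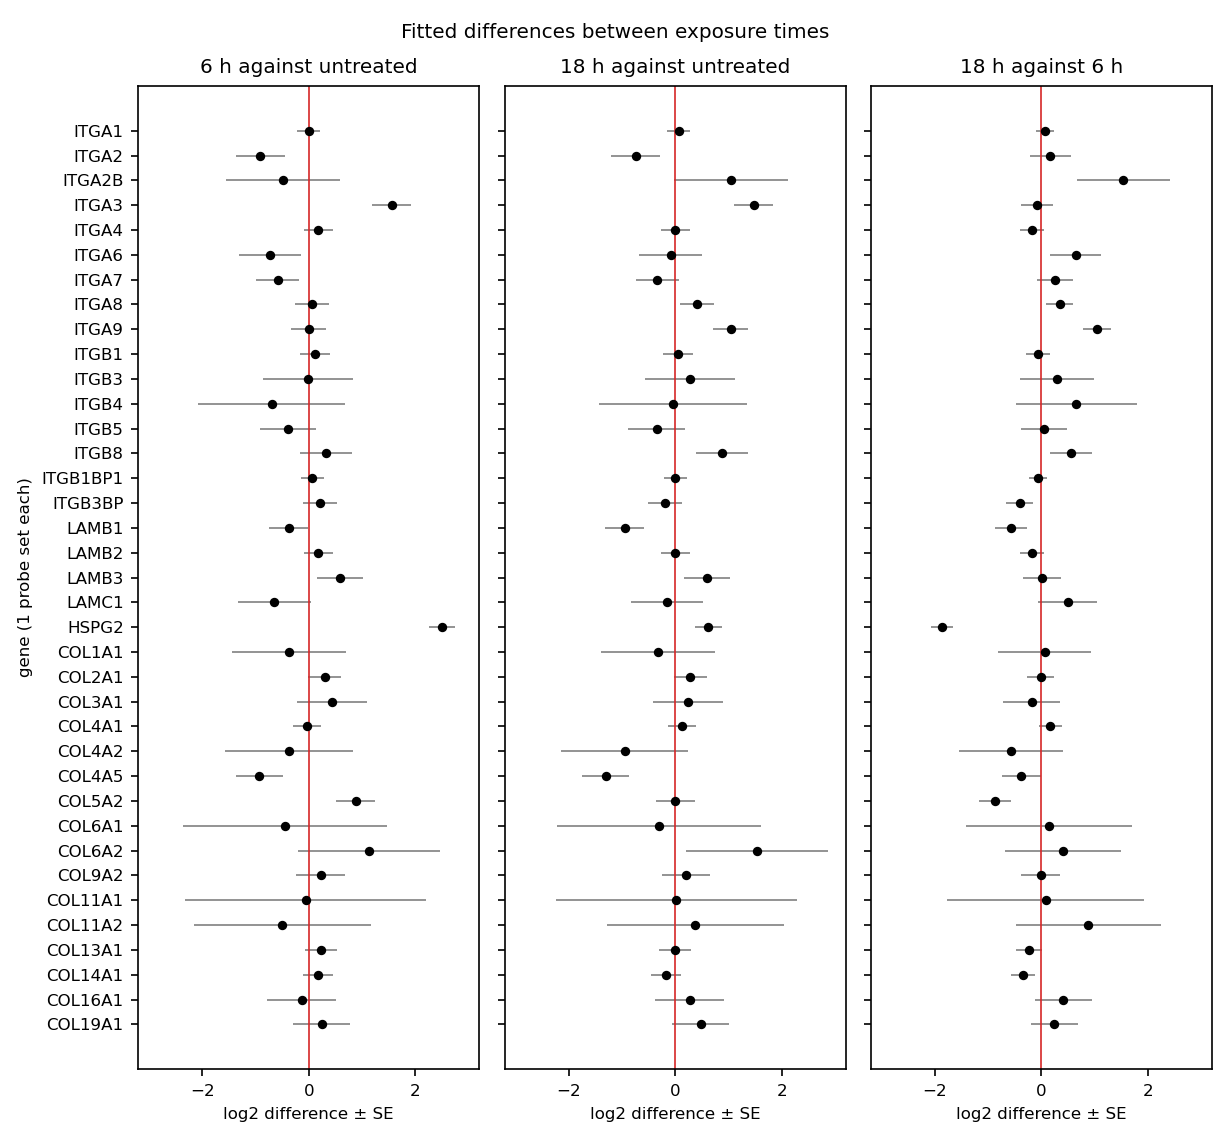
Fitted log2 differences (points) with standard errors (bars) of the 37 genes in the 3 comparisons, each as the later time minus the earlier one or minus the untreated-labelled array. The first probe set of HSPG2 lies at 2.50 at 6 h against untreated and at -1.87 at 18 h against 6 h.

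The 2 arrays of a time differed in opposite ways at 6 h and at 18 h. Across the 37 genes the log2 difference of replicate 1 from replicate 2 at 6 h and the same difference at 18 h had a Pearson correlation of -0.72 and a Spearman correlation of -0.62, against -0.29 and -0.24 across all 5029 probe sets. These are correlations across genes of the same 4 arrays, and genes are not independent replicates. Without the 2 genes of largest 6 h difference, the values for the remaining 35 were -0.60 and -0.55. The signs were opposite in 23 of the 37 genes, or 62.2%, against 48.3% of all probe sets. The arrays labelled as untreated, 6 h replicate 1 and 18 h replicate 2, which had the larger intensity range, all lay above the other 2 in COL1A1, COL4A2, COL11A1, COL11A2 and ITGA7, and all lay below them in COL6A1, COL6A2, ITGA3, ITGA8 and ITGB4. Each set is 13.5% of the genes, where 9.56% and 9.43% of all probe sets behaved so. The part of the intensity range in these differences was not tested.

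**Figure D4:**
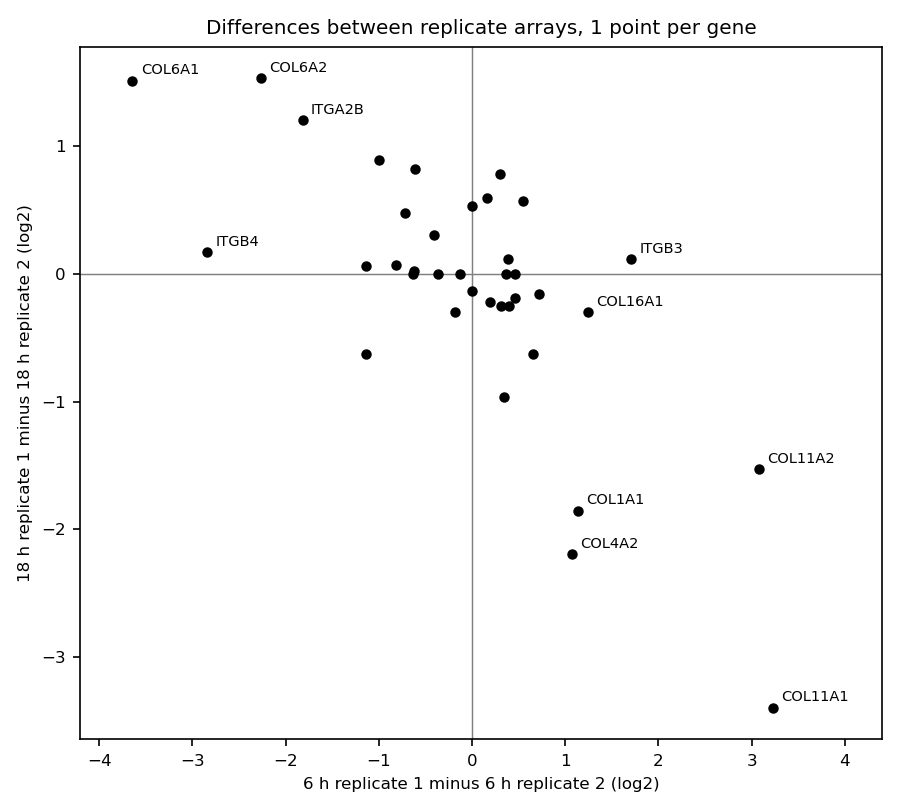
Log2 difference between replicate 1 and replicate 2 at 6 h (horizontal) and at 18 h (vertical), 1 point per gene for 37 genes. COL11A1 and COL11A2 lie at the lower right and COL6A1, COL6A2 and ITGA2B at the upper left, with a Pearson correlation of -0.72.

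In 7 genes a second probe set also exceeded the floor, which gives a check on single genes. The 2 sets had the same sign in 5 of 7 genes at 6 h against untreated, in 2 of 7 at 18 h against untreated, and in 4 of 7 at 18 h against 6 h. No gene among COL1A1, COL11A1, COL14A1, COL16A1, HSPG2, ITGA2B and ITGB5 had the same sign in all 3 comparisons.

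Other genes of the adhesion and matrix pathway also gave 0 calls in limma in each comparison, where 0% of all 5029 probe sets were called. At 18 h against untreated, the comparison of the counts below, 42.3% of all probe sets lay above 0 and 51.8% below. Of 19 integrin adaptors and focal adhesion genes measured, 13 exceeded the floor, and at 18 h against untreated 7 lay above 0 and 5 below, with a median of 0.08. The LIM protein zyxin (ZYX) had 601 and 458 at 18 h, against 298 on the untreated-labelled array, and 164 and 638 at 6 h, a split like that of ITGB4. Talin 2 (TLN2) had 155 and 99 at 18 h, against 207 on the untreated-labelled array. Of 33 other matrix glycoproteins, 20 exceeded the floor, with 11 above 0, 7 below and a median of 0.02, and the syndecan SDC4, a heparan sulfate proteoglycan of the cell surface, had 344 and 561 at 18 h, against 257 on the untreated-labelled array, while biglycan (BGN) had 22 and 40, against 59 on the untreated-labelled array. Of 11 collagen processing genes, 10 exceeded the floor, with 5 above 0 and 5 below. Cyclophilin B (PPIB), a proline isomerase of collagen folding, had 809 and 765 at 18 h, against 328 on the untreated-labelled array, a log2 difference of 1.26, and 1231 and 795 at 6 h. Its limma adjusted p was 1. The crosslinking oxidase LOX had 29 and 20 at 18 h, against 46 on the untreated-labelled array. Of 27 matrix proteases and inhibitors, 20 exceeded the floor, with 10 above 0, 7 below and a median of 0.01. The urokinase receptor PLAUR had 786 and 688 at 18 h, against 416 on the untreated-labelled array, and the membrane-type protease MMP15 had 82 and 173, against 54 on the untreated-labelled array.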

How the data were processed

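Intensities per probe set were measured on 5 Affymetrix arrays of T84 RNA, labelled with biotin per the labels' protocols. The authors deposited them as whole-number intensities on a linear scale, some negative, so a background had been subtracted. The software and scaling are not given in the sources used here. Of 7018 probe sets, 5649 had 1 gene symbol in the platform annotation, 321 several and 1048 none. Intensities were floored at 20 and log2(intensity + 1) was computed, which understates changes of dim genes. The 1989 probe sets never above 20 were left out. Groups by title were compared by limma 3.58.1 (lmFit and eBayes, R 4.3.3) over 5 arrays and 5029 probe sets, with Benjamini-Hochberg adjustment and a threshold of 0.05. The residual and prior degrees of freedom were 2 and 1.24, and the spread of the untreated array was taken from the arrays labelled as treated. The number of arrays limits the precision. The fit was tested on simulated data.

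The genes and lists were chosen with earlier results of these data known. Named genes are HSPG2, those with a mean of at least 100, the 4 highest and 4 lowest in each comparison, and the 2 of largest change in the 4 pathway lists; other genes are given to account for every one. FN1 was under the floor. Alternatives were floors of 50 and 100, an added value of 16, no filter, quantile normalization, blocks, the median over a gene's probe sets and leaving out arrays. The GC box was searched in upstream stretches from RefSeq with Python 3.11.15. The authors' list of induced genes holds none of the genes described and was not used.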

Additional observations from a re-analysis of the deposited data

How the results depend on the processing

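The count of probe sets called stayed 0 in all 3 comparisons under both floors, the added value of 16, quantile normalization, both blocks and with any array left out. With no filter limma called 100, 97 and 1 probe sets (6 h against untreated, 18 h against untreated, 18 h against 6 h), with 1989 constant probe sets added, and 0 of the genes described here. The median log2 difference of the genes was 0.18 at 6 h against untreated with the crossed replicate block, and 0.018 with a floor of 50 and 0.00 with no filter at 18 h against 6 h. With an array left out it ran from 0.00 to 0.19, from 0.00 to 0.13 and from -0.11 to 0.066. The second probe set of HSPG2 at 6 h against untreated was -0.51 with the replicate block, in which arrays share the number of their titles, and -0.097 with the crossed block. With an array left out it ran from -0.66 to 0.77 at 6 h against untreated, from -0.79 to 0.037 at 18 h against untreated, and from -1.15 to 0.29 at 18 h against 6 h. The first set kept its sign under all alternatives, except 0.00 at 18 h against untreated with floors of 50 and 100, and with a floor of 100 it was 0.23 at 6 h. The untreated-labelled array lay under every floor, so against it that sign could not turn with a floor, added value or left-out array. Same-numbered arrays of the 2 times deviated with a correlation of -0.29, so numbers were crossed in an alternative chosen after seeing the data, which called 0 probe sets in each comparison. Signs turned with a floor of 50 at 6 h against untreated for COL11A2 (0.14), ITGA2B (0.16), and at 18 h against 6 h for COL6A1 (-0.25). Signs turned with a floor of 100 at 6 h against untreated for COL11A2 (0.40), COL16A1 (0.12), COL4A1 (0.0071), COL4A2 (0.041), COL6A1 (0.43), and at 18 h against untreated for COL4A2 (0.035), and at 18 h against 6 h for COL6A1 (-0.46), COL9A2 (0.093). Signs turned with quantile normalization at 18 h against untreated for ITGB4 (0.011), and at 18 h against 6 h for ITGB1 (0.042), LAMB3 (-0.011). Signs turned with the replicate block at 6 h against untreated for COL16A1 (0.10). Signs turned with the crossed replicate block at 6 h against untreated for COL11A2 (0.65), COL16A1 (0.25), COL4A2 (0.45), ITGA8 (-0.11). Leaving out an array turned the sign at 6 h against untreated for COL11A2 (-2.03 to 1.04), COL16A1 (-0.76 to 0.49), COL4A1 (-0.12 to 0.058), COL4A2 (-0.91 to 0.17), COL6A1 (-2.26 to 1.38), ITGA2B (-1.39 to 0.43), ITGA8 (-0.14 to 0.27), ITGB1 (-0.075 to 0.31), ITGB3BP (-0.014 to 0.45), ITGB4 (-2.12 to 0.72). Leaving out an array turned the sign at 18 h against untreated for COL11A2 (-0.38 to 1.14), COL4A1 (-0.015 to 0.28), COL4A2 (-2.04 to 0.15), COL6A1 (-1.06 to 0.45), COL9A2 (-0.19 to 0.60), ITGB1 (-0.011 to 0.11), ITGB4 (-0.13 to 0.044), ITGB5 (-0.76 to 0.063). Leaving out an array turned the sign at 18 h against 6 h for COL11A2 (-0.66 to 2.41), COL16A1 (-0.21 to 1.03), COL2A1 (-0.22 to 0.18), COL4A2 (-1.67 to 0.52), COL4A5 (-0.78 to 0.034), COL6A1 (-1.69 to 1.96), COL6A2 (-0.72 to 1.54), COL9A2 (-0.41 to 0.38), ITGA2 (-0.19 to 0.53), ITGA3 (-0.39 to 0.23), ITGA7 (-0.11 to 0.61), ITGB1 (-0.26 to 0.12), ITGB4 (-0.77 to 2.08), ITGB5 (-0.37 to 0.45), LAMB3 (-0.27 to 0.30). No gene described here passed in any of these fits. Signal close to the floor limits COL4A5, COL5A2, ITGA9 and ITGB8, and on some arrays COL6A2 and both probe sets of HSPG2. The cause of the turned signs was not tested.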

Other observations

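Letter-named integrin alpha chains lay outside the choice of genes. ITGAE, the chain of intraepithelial lymphocytes that binds E-cadherin, had 51 on the untreated-labelled array, 109 and 72 at 6 h, and 31 and 59 at 18 h. ITGAV, the partner of ITGB5 and ITGB8, stayed under the floor on all 5 arrays, between -10 and 14. The leukocyte chain ITGAL had 8 on the untreated-labelled array, 127 and -7 at 6 h, and -31 and 106 at 18 h, high on the array labelled 6 h replicate 1 and on 18 h replicate 2 like COL11A1. ITGAX had 64 on the untreated-labelled array, 37 and 71 at 6 h, and 86 and 87 at 18 h. ITGAD had 91 on the untreated-labelled array, 46 and 70 at 6 h, and 75 and 89 at 18 h. ITGAM never exceeded the floor.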
